A study of Mus musculus with 9 samples.

Results

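The genes described here are 31 enzymes and regulators of cholesterol and fatty acid synthesis, chosen by symbol for their place in these pathways. All 31 were in the table of sorted cells (16367 genes) and in the table of cultured cells (17035 genes), and all 31 passed the filter on low values that was applied to the sorted table. By role, 7 carry out the mevalonate steps, 12 the steps from squalene to cholesterol, 6 sense, transport or regulate sterols, and 6 make fatty acids. RNA came from mouse cells prepared as Müller glia, radial glia that span the retina, in 3 groups of 3 libraries. The sham group held cells of wild-type (WT) mice whose cornea had been incised and no oil given. The ocular hypertension (OHT) group held cells of WT mice that had received 1.2 µL of silicone oil in the anterior chamber of both eyes, a procedure used to raise the pressure in the eye. Each of these 6 libraries pooled 4 neural retinas, and its cells had been captured on magnetic beads by an antibody against GLAST, a glutamate transporter that astrocytes also carry. The third group was 3 untreated cultures of primary Müller glia, started from the retinas of C57BL/6J pups aged 8 to 10 days and passaged in medium with serum. The labels give no age, sex or time after injection for the sorted groups, and nothing in them says that libraries of 1 group came from separate animals or cultures, so the spread between libraries may in part be technical.

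Cells build cholesterol from acetyl-CoA, first through mevalonate to farnesyl pyrophosphate, then through squalene and lanosterol. The enzymes of this chain share a feedback control: when membrane sterol is low, SCAP carries the SREBP transcription factors, encoded by Srebf1 and Srebf2, from the endoplasmic reticulum to the Golgi, where they are cut and released to the nucleus. INSIG proteins hold SCAP back when sterol is plentiful. The Srebf2 product is known mainly for the sterol enzymes, the Srebf1 product mainly for the fatty acid enzymes. In nervous tissue, glia are known as a main site of sterol synthesis, since blood lipoproteins pass the barrier poorly.

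SREBPs bind sterol regulatory elements next to CCAAT boxes and GC boxes, so the promoters of these genes were searched for such letters. RefSeq promoters (GRCm38.p6, 250 bases before to 50 after the start) were at hand for 25 of the 31 genes, in 33 windows, and each motif was searched on both strands. The sterol element TCACNCCAC was found in 1 of the 33 windows, that of Hmgcs1, against 1.24% of all 32851 windows. CCAAT was found in 66.7% of the 33 windows and in 37.4% of all windows. GGGCGG was found in 75.8% and 35.7%. These matches are descriptions of the letters only, and a window without a match says nothing about binding of a factor. The Hmgcs1 window is shown because it alone held all 3 motifs. Those of Fasn, the gene with the largest ratio between cultures and sorted cells, and of Insig1, which was lower in the cultures by its mean, were chosen after their values were seen. Capitals mark the matches, on either strand, and 2 of the 3 CCAAT matches in Fasn overlap each other.
Hmgcs1 (chr13:119690101-119690400, plus strand): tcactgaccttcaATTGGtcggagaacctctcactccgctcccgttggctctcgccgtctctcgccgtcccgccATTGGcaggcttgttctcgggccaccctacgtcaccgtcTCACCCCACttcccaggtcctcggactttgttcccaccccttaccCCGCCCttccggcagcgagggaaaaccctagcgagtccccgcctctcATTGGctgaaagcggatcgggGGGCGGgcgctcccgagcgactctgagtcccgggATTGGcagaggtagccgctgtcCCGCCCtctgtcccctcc
Fasn (chr11:120824498-120824797, minus strand): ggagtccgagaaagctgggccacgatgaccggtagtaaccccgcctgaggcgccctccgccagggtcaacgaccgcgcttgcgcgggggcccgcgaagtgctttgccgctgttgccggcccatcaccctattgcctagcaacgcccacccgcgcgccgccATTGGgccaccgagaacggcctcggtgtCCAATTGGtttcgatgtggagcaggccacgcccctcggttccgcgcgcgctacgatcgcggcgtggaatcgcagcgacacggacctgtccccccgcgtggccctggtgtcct
Insig1 (chr5:28071162-28071461, plus strand): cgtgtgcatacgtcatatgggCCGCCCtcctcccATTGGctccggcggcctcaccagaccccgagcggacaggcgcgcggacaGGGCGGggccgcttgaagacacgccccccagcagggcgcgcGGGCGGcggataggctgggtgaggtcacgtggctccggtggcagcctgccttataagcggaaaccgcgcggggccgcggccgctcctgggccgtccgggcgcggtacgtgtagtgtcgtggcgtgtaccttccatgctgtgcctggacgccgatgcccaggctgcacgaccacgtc

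In Hmgcs1 the sterol element lay from base -137 to base -129 before the start, between CCAAT boxes on the opposite strand at -176 to -172 and at -45 to -41. The GC box nearest to it lay at -92 to -87. In Fasn the CCAAT boxes lay between -90 and -55, and in Insig1 the 1 CCAAT box lay at -216 to -212, between GC boxes at -229 to -224 and -167 to -162.

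The sorted libraries held 37.8 to 53.6 M recovered reads (M, 1e+06 reads) and the cultures 66.3 to 76.7 M. Levels across tables are in ppm, that is reads per 1e+06 of a library's total, and carry no test, because the tables were normalised separately. Markers of other cells bear on every value below. Microglia and macrophage markers (12 of 12 listed) summed to 34109 to 52857 ppm in sham and 46537 to 62663 ppm in OHT, more than the Müller glia markers (13 of 13), at 3547 to 8576 ppm and 1921 to 4134 ppm. Rod markers (13 of 13) were at 2883, 27132 and 21901 ppm in sham and at 1001, 1177 and 3604 ppm in OHT. In the cultures the microglial markers summed to 100 to 154 ppm, and 12 of the 13 Müller glia markers lay below all 6 sorted libraries, Glul at 24.9 to 48.2 ppm. The exception was Vim, at 2301 to 3319 ppm. Mural and fibroblast markers (7 of 7 listed) summed to 16146 to 19116 ppm in the cultures, led by Acta2, Col1a1 and Col1a2. In the sorted libraries they summed to 8.19 to 256 ppm, most of it Rgs5. In the cultures 6 of the 7 lay above all sorted libraries. Rgs5 lay below them, at 2.58 to 3.44 ppm against 4.85 to 226 ppm, and Lum was at 0.169 to 0.370 ppm in the cultures. The names "sorted" and "culture" are therefore used for the groups rather than a cell type.

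The synthesis genes were a small part of every library, and their sums overlapped between sham and OHT. The sum was 1234, 1520 and 1428 ppm in the 3 sham libraries, 712, 1276 and 1336 ppm in the OHT libraries, and 2966, 3165 and 2915 ppm in the cultures. In these ppm sums OHT replicate 1 was the lowest library, and the cultures lay above all 6 sorted libraries. For single genes the place of OHT replicate 1 could depend on the scaling. Msmo1 was there at 3843 normalised counts, the highest of the 6 sorted libraries, and at 58.4 ppm, the lowest of the 6. Of the 4 role groups, only the fatty acid group had ppm sums without overlap between sham (283, 471 and 354) and OHT (136, 278 and 215). The gap between the nearest libraries, 283 and 278 ppm, was small beside the SD of 94.9 ppm in sham. In the normalised counts used to compare OHT with sham, the sums of this group overlapped. Acly, the largest of the 6, was there at 7369 in sham replicate 1 and 8321 in OHT replicate 2. In bulk samples such as these, fewer cells of a type and less RNA per cell cannot be told apart.

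**Figure D1:**
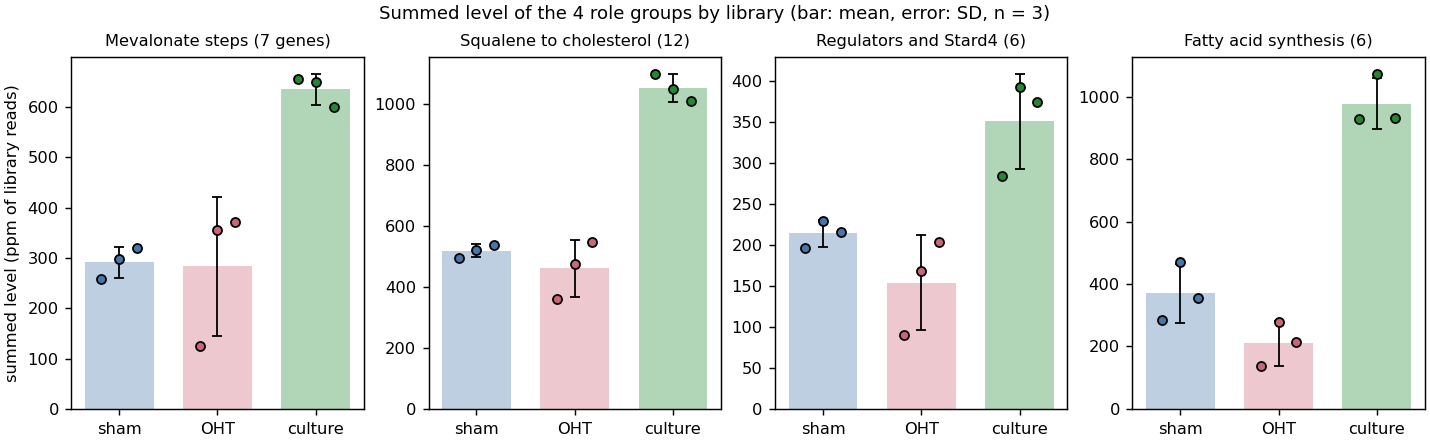
Summed level in ppm of library reads (vertical axis) of the 4 role groups in sham, OHT and culture libraries. Points are libraries, bars the mean and error bars the SD (n = 3). The cultures lie above all sorted libraries in each panel, and OHT replicate 1 is the lowest sorted library in each. This order holds for ppm and differs in normalised counts.

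Levels of different genes were compared per length, as reads per kilobase of exon, scaled to a sum of 1e+06 in each library (TPM). In sham the highest genes were Fdps, which makes farnesyl pyrophosphate, at 115 ± 6.09 TPM, Acly, which supplies acetyl-CoA in the cytosol, at 106 ± 20.3, Msmo1, a sterol demethylation enzyme, at 100 ± 21.9, Ebp, a sterol isomerase, at 85.8 ± 10.8, and Hmgcs1, which makes HMG-CoA, at 76.5 ± 21.1 (SD, n = 3 each). Neighbours in this order did not differ beyond their spread. The lowest were Acaca (3.18 ± 1.35 TPM), the enzyme that makes malonyl-CoA, Elovl6 (3.86 ± 0.996) and Fasn (5.21 ± 2.97), which build and extend fatty acid chains. The order in OHT began likewise with Fdps (111 ± 63.5 TPM), Ebp (77.3 ± 21.3) and Msmo1 (73.7 ± 18.3). In the cultures Fdps was at 413 ± 31.7 TPM and Sqle, the squalene epoxidase, at 204 ± 37.8, and Fasn was at 63.2 ± 21.5.

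The sorted libraries were compared between OHT and sham, gene by gene. None of the 31 genes passed an adjusted p of 0.05 in limma, where 0 of 14403 genes (0%) passed. At an unadjusted p under 0.05 there was 1 gene of the 31, Dhcr7, where 11.7% of all genes tested lay under it and 6.30% did so with a lower level in OHT, as Dhcr7 had. That count of 1 was 4 without OHT replicate 2, 3 without sham replicate 1 and 0 without any other 1 of the 6 libraries. It was 4 after quantile normalization and 0 with array weights. Over all genes the count was 1680 of 14403 in the main fit. It was 2508 of 14391 without OHT replicate 2 and 1565 of 14384 without sham replicate 1. Leaving out any other library gave from 544 of 14314 to 2092 of 14372. Quantile normalization gave 1576 of 14403 and array weights 1555 of 14403. The groups did not overlap for 3 of the 31 genes, 2 higher and 1 lower in OHT, against 18.4% of all genes. Log2 differences were below 0 for 19 of the 31 genes and 54.8% of all genes. Their median was -0.31 beside -0.12 for all genes. The adjusted p of the 31 genes ranged from 0.409 to 0.993. edgeR on the recovered reads also called 0 of the 31 and 0 of all genes, with 0 of the 31 and 10.9% of all genes at an unadjusted p under 0.05. DESeq2 called none of the 31 and 1.80% of all genes with an adjusted p, with 1 of the 31 and 14.1% of all genes at an unadjusted p under 0.05.

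Without OHT replicate 1 the median of the 31 genes moved from -0.31 to -0.10 and that of all genes from -0.12 to -0.047, so that the gap between them went from -0.19 to -0.052. For each library, the median over the 31 genes of the log2 value minus the gene's sham mean was also taken. It was -0.31, 0.13 and 0.15 in sham and -0.12, 0.03 and -0.07 in OHT, so the groups overlapped. Sham replicate 1 was the lowest of the 6. These medians per library had an SD of 0.193 between libraries, pooled over both groups, which is not an SD of the difference of -0.31. Gene by gene, OHT replicate 1 was the lowest of the 6 libraries for 12 of the 31 genes and for 29.9% of all genes. The 12 were Hmgcs1, Pmvk, Sqle, Lbr, Dhcr7, Srebf1, Insig1, Stard4, Acaca, Fasn, Scd1 and Elovl6. Without sham replicate 1, 11 of the 31 genes had groups without overlap, against 34.0% of all genes, and without OHT replicate 2 there were 9, against 36.6%.

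The mevalonate genes showed no common direction: 4 of 7 were higher and 3 lower in OHT by their log2 difference, with a median of 0.10, and none passed the test. Fdps had 2633, 2506 and 3031 normalised counts in sham and 3008, 5685 and 2574 in OHT. The sham libraries lay close together, and OHT replicate 2 alone stood above them (log2 difference 0.38, SE 0.38, limma adjusted p 0.683), and the Fdps difference was 0.036 without it. Hmgcs1 had 3078, 4688 and 5115 normalised counts in sham and 499, 4339 and 5001 in OHT. OHT replicate 1 lay far below the other libraries, and the other 2 OHT libraries lay within the sham range (log2 difference -0.92, SE 0.72, limma adjusted p 0.602). Without that library the Hmgcs1 difference was 0.15.

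The remaining mevalonate genes lay on both sides of 0. Acat2, which joins acetyl-CoA units in the cytosol, was at 1810 ± 256 normalised counts in sham and at 2524 ± 667 in the OHT libraries (log2 difference 0.46, SE 0.36). OHT replicates 2 and 3 lay above all sham libraries. Mvk, the mevalonate kinase, was at 474 ± 171 and 532 ± 239, and Pmvk, which adds the next phosphate, at 1208 ± 116 and 1324 ± 698. Mvd, which forms isopentenyl pyrophosphate, was at 530 ± 24.7 in sham and 372 ± 229 in OHT, with 2 OHT libraries below all sham libraries. Idi1, its isomerase, was at 759 ± 154 and 854 ± 163 (SD, n = 3 each). The limma adjusted p of these 5 genes lay between 0.604 and 0.993.

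Among the steps from squalene to cholesterol, 7 of 12 genes were higher and 5 lower in OHT by their log2 difference, with a median of 0.11. The genes without overlap between groups were Tm7sf2 and Ebp, both higher in OHT, where 9.26% of all genes separated in that direction. Tm7sf2, a sterol reductase, had 106, 250 and 246 normalised counts in sham and 919, 318 and 284 in OHT. The nearest libraries of the groups, at 250 and 284, lay close, and OHT replicate 1 was far above the rest (log2 difference 1.22, SE 0.72, adjusted p 0.512 in limma; 0.1 in a two-sided exact permutation test, the smallest p that 3 against 3 can give). Without OHT replicate 1 the Tm7sf2 difference was 0.68. Ebp had 2855, 2044 and 2401 normalised counts in sham and 3242, 3326 and 2994 in OHT. All 3 OHT libraries lay just above the highest sham library (log2 difference 0.40, SE 0.33, limma adjusted p 0.615; exact permutation p 0.1).

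Dhcr7, which carries out a last reduction on the way to cholesterol, was the member with the smallest p. It had 1199, 1661 and 1838 normalised counts in sham and 271, 1301 and 671 in OHT. OHT replicates 1 and 3 lay below every sham library while OHT replicate 2 lay inside the sham range (log2 difference -1.32, SE 0.57, limma p 0.0403, adjusted p 0.409; exact permutation p 0.2). Leaving out 1 library gave log2 differences from -1.85 to -0.72 for Dhcr7, with -0.72 without OHT replicate 1. Tm7sf2 and Dhcr7 are both sterol reductases of the late pathway, and their differences had opposite signs.

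Msmo1, in sham the highest gene of these steps per length, had 3104, 3674 and 3048 normalised counts in sham and 3843, 3489 and 3430 in OHT. The groups overlapped and the difference was small (log2 0.13, SE 0.32). Sqle, known as a rate-limiting step, was at 2313 ± 776 in sham and 1781 ± 1149 in OHT, with 455 in OHT replicate 1. Its log2 difference of -0.67 became 0.14 without that library. Cyp51, the lanosterol demethylase, was at 2065 ± 374 and 2839 ± 824, with 2 OHT libraries above all sham libraries (log2 difference 0.44, SE 0.37). Lbr, a sterol reductase that is also a receptor of the nuclear lamina, was at 1643 ± 187 and 1326 ± 186, with 2 OHT libraries below all sham libraries (log2 difference -0.31, SE 0.37; SD, n = 3 each).

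Fdft1, the squalene synthase, was at 2318 ± 516 normalised counts in sham and 2009 ± 630 in OHT, and Lss, the lanosterol synthase, at 668 ± 119 and 617 ± 152. In the GENCODE M21 annotation, 10 of the 31 genes share exonic bases with another gene. The longest overlap, 1124 bases of Fdps with Gm43738, is on the same strand, where reads of the pair cannot be told apart by strand, so the level of Fdps is uncertain. On the opposite strand, Scap shares 785 bases with 5830462I19Rik, Fdft1 774 with Ctsb, Hmgcs1 557 with Gm48342 and Lss 381 with 4930483K19Rik. Also on that strand, Idi1 shares 323 with Gm48574, Cyp51 166 with Akap9 and Srebf1 109 with Rai1. Reads of such partners cannot be told apart unless strand was used in counting, which is not given in the sources used here. Nsdhl, which acts beside Msmo1 in demethylation, was at 998 ± 193 and 1159 ± 234. Hsd17b7, a ketosteroid reductase, was at 629 ± 115 and 983 ± 859, with 1950 in OHT replicate 1, and its log2 difference of 0.26 was -0.43 without that library. Sc5d, a sterol desaturase, was at 2812 ± 244 and 3029 ± 609 (SD, n = 3 each). Adjusted p in limma was 0.620 to 0.918 for Fdft1, Lss, Cyp51, Nsdhl, Hsd17b7, Sc5d, Msmo1, Sqle and Lbr.

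**Figure D2:**
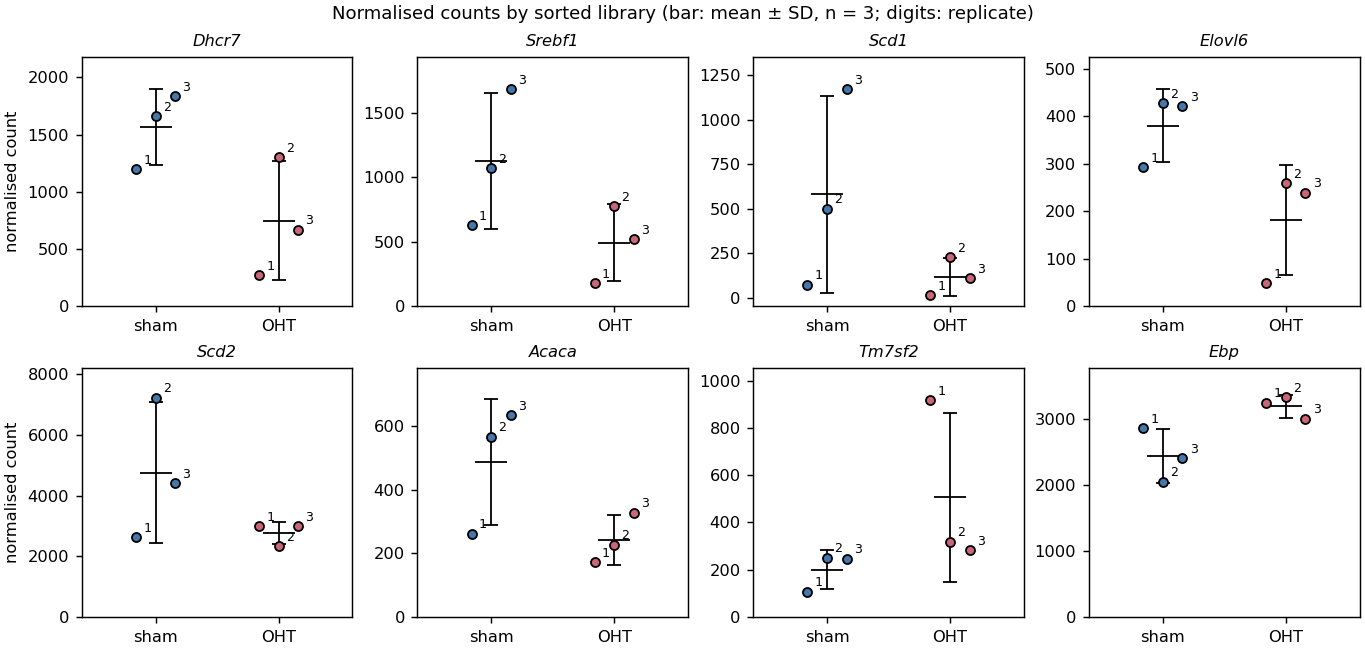
Normalised counts (vertical axis) of 8 genes in the 3 sham and 3 OHT libraries. Points are libraries numbered by replicate, the bar is the mean and the error bar the SD (n = 3). OHT replicate 1 is the lowest library for Dhcr7, Srebf1, Scd1, Elovl6 and Acaca and the highest for Tm7sf2, and the groups separate only for Elovl6, Tm7sf2 and Ebp.

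Of the regulators, 5 of 6 had log2 differences below 0 and 1 above 0, with a median of -0.38, and none passed the test. Srebf1 had 630, 1070 and 1679 normalised counts in sham and 181, 775 and 520 in OHT. OHT replicates 1 and 3 lay below all sham libraries and OHT replicate 2 lay above sham replicate 1 (log2 difference -1.32, SE 0.63, limma adjusted p 0.444). Leaving out 1 library gave -1.76 to -0.71, with -0.71 without OHT replicate 1. Srebf2, the sterol-directed factor, had 1110, 1641 and 1808 normalised counts in sham and 1514, 1330 and 773 in OHT. Only OHT replicate 3 lay below the sham range (log2 difference -0.36, SE 0.43, limma adjusted p 0.727), and the difference was -0.068 without it.

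Scap, the escort protein of the SREBPs, had 662, 947 and 825 normalised counts in sham and 924, 736 and 268 in OHT. OHT replicate 3 was the only library outside the sham range, and without it the log2 difference of -0.50 was 0.04. Insig1, itself a known SREBP target, had 2119, 2024 and 2135 normalised counts in sham and 1156, 1646 and 2315 in OHT. The sham libraries lay within a narrow band, which the OHT libraries surrounded, 2 below and 1 above (log2 difference -0.35, SE 0.38, and -0.10 without OHT replicate 1). Insig2 had 2115, 2469 and 1440 normalised counts in sham and 1803, 2004 and 2202 in OHT. All 3 OHT libraries of Insig2 lay inside the sham range (log2 difference 0.03, SE 0.37). Stard4, which moves sterol between membranes, had 1053, 891 and 1297 normalised counts in sham and 351, 914 and 1627 in OHT. Its OHT libraries lay below, inside and above the sham range, and without OHT replicate 1 the log2 difference of -0.41 was 0.19. The limma adjusted p of Scap, Insig1, Insig2 and Stard4 lay between 0.708 and 0.981.

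All 6 fatty acid genes had log2 differences below 0, with a median of -0.81 beside -0.12 for all genes, and none of the 6 passed the test. Elovl6, which extends palmitate, was the 1 member that was lower in OHT without overlap, where 9.18% of all genes were. It had 292, 427 and 421 normalised counts in sham and 48.4, 258 and 239 in OHT. OHT replicate 1 was far below the others, and OHT replicates 2 and 3 lay just below the lowest sham library (log2 difference -1.37, SE 0.80, limma adjusted p 0.505; exact permutation p 0.1). Without OHT replicate 1 its log2 difference was -0.59.

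Scd1, a stearoyl-CoA desaturase, had the largest difference and the widest spread. It had 71.3, 500 and 1171 normalised counts in sham and 12.4, 227 and 108 in OHT, with 9 recovered reads in OHT replicate 1. Sham replicate 1 lay below 2 of the OHT libraries (log2 difference -2.33, SE 1.25, limma adjusted p 0.482). Leaving out 1 library gave -3.46 to -1.14, with -1.14 without OHT replicate 1 and -1.45 without sham replicate 3. Scd2, the desaturase paralog known from brain, had 2637, 7231 and 4403 normalised counts in sham and 2985, 2339 and 2985 in OHT. The OHT libraries lay together near sham replicate 1, and sham replicate 2 stood highest (log2 difference -0.67, SE 0.40, limma adjusted p 0.519). It was -0.31 without sham replicate 2 and -1.04 without sham replicate 1. Scd1 and Scd2 are close paralogs, and how reads shared by both were counted is not given in the sources used here.

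Acly had 7369, 8597 and 7642 normalised counts in sham and 5585, 8321 and 3494 in OHT. OHT replicate 2 lay within the sham range and the other 2 OHT libraries below it (log2 difference -0.53, SE 0.37, limma adjusted p 0.562), with -0.20 for Acly without OHT replicate 3. Acaca had 261, 566 and 634 normalised counts in sham and 171, 226 and 328 in OHT, where OHT replicate 3 lay above sham replicate 1 (log2 difference -0.96, SE 0.64, limma adjusted p 0.550). Fasn, the fatty acid synthase, had 441, 1220 and 809 normalised counts in sham and 167, 885 and 968 in OHT. OHT replicates 2 and 3 lay inside the sham range, and without OHT replicate 1 the log2 difference of -0.53 became 0.29. Across the 6 fatty acid genes sham replicate 1 was the lowest sham library. The sums of rod and astrocyte markers had the same low library. The astrocyte markers (6 listed) summed to 46.5, 687 and 1247 ppm in sham and 103, 67.5 and 177 ppm in OHT. Most of the sum in sham replicates 2 and 3 was Gfap, at 569 and 1121 ppm. Cd44 was at 32.9 to 59.1 ppm in sham and 46.7 to 76.9 ppm in OHT. Gjb6 was at 0 in 5 of the 6 libraries and Pax2 at 0 in 3. Of the 5 markers kept by the filter, 4 had log2 differences below 0 and 1 above. The part of these cells in the fatty acid values was not tested.

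**Figure D3:**
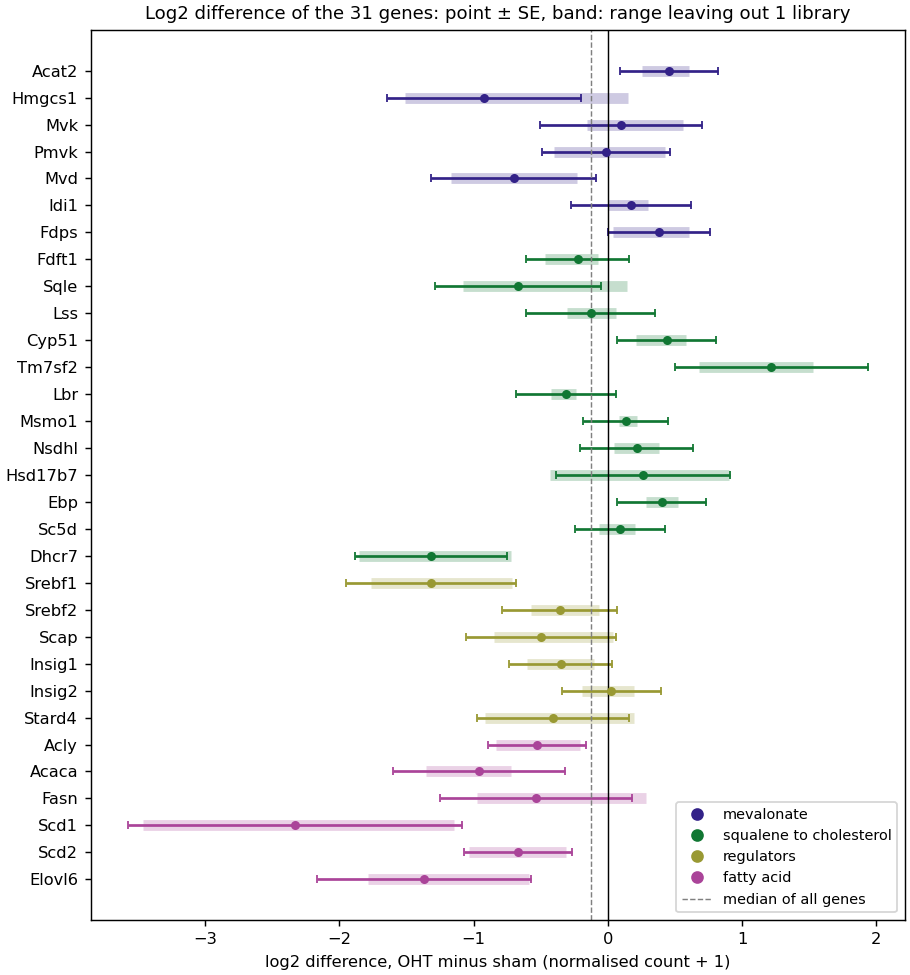
Log2 difference of OHT minus sham on the log2 scale of normalised count + 1 (horizontal axis) for the 31 genes (vertical axis), with the SE as error bar and the range over leaving out each library as a band; the dashed line is the median of all genes, -0.12. The 6 fatty acid genes lie left of 0, from -2.33 to -0.53, and the sterol steps lie on both sides. The band of Fasn, like those of Hmgcs1, Sqle and Stard4, crosses 0.

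Other lipid genes were counted by list. Of 10 genes for SREBP processing and turnover, 3 had log2 differences above 0 and 7 below, with a median of -0.12, and 0 lay under an unadjusted p of 0.05. The smallest p belonged to Rnf145, a ubiquitin ligase of sterol sensing (2975 ± 385 normalised counts in sham, 2085 ± 728 in OHT; limma adjusted p 0.550). Of 9 genes of the isoprenoid branch 2 were above 0 and 7 below (median -0.32), and Coq2, of ubiquinone synthesis, was lowest in p (1620 ± 139 and 1029 ± 544; limma adjusted p 0.517). Neither list held a gene past the threshold in limma, edgeR or DESeq2.

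A wider list of fatty acid and lipid genes kept 21 of its 22 genes, with 8 above 0, 13 below and a median of -0.33. None passed the threshold, and 6 lay under an unadjusted p of 0.05, 1 higher and 5 lower, beside 11.7% of all genes. Elovl4, known for the very long chains of photoreceptors, had 1948, 11432 and 10170 normalised counts in sham and 187, 897 and 1977 in OHT. Sham replicate 1 lay just below OHT replicate 3, and the rod markers given above, which were likewise lowest in sham replicate 1 among the sham libraries, were not tested for their part in it (log2 difference -3.14, SE 0.84, limma adjusted p 0.332). Me1, the malic enzyme that supplies NADPH, had 83.7, 719 and 1265 normalised counts in sham and 49.7, 70.8 and 32.1 in OHT. All 3 OHT libraries lay below sham replicate 1, itself far below the other sham libraries (log2 difference -3.11, SE 1.04, limma adjusted p 0.343). Acsl3, an acyl-CoA synthetase, was at 22039 ± 14133 in sham and at 7103 ± 3281 in OHT; its log2 difference was -1.55 (SE 0.46, limma adjusted p 0.332). edgeR called none of this list, and DESeq2 called Me1 (adjusted p 0.00249) and Elovl4 (adjusted p 0.00843), both lower in OHT, beside 1.80% of all genes.

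On the side of sterol removal, 10 genes of the LXR factors, efflux and esterification had a median log2 difference of 0.29, with 6 above and 4 below 0, and 0 passed the threshold. At an unadjusted p under 0.05 there were 4 higher and 1 lower, beside 11.7% of all genes in either direction. Abcg1, a sterol efflux pump, had 1088, 1132 and 3683 normalised counts in sham and 19601, 5117 and 9680 in OHT. Its log2 difference was 2.58 (SE 0.57). Abca1, its partner in efflux, had 1740, 1577 and 3803 against 5108, 5891 and 5360, a log2 difference of 1.32 (SE 0.39). Ch25h, which makes an oxysterol that blocks SREBP processing, had 430, 472 and 854 normalised counts against 1610, 1613 and 1269, a log2 difference of 1.41 (SE 0.45). All 3, named for the smallest p of the list, had a limma adjusted p of 0.332 and groups that did not overlap. Of the 10 genes, 4 were higher and 1 lower without overlap, against 9.26% and 9.18% of all genes. edgeR called none of this list, and DESeq2 called Abcg1 alone (adjusted p 0.00449), beside 1.80% of all genes. Microglial markers stood beside these genes at 34109 to 52857 ppm in sham and 46537 to 62663 ppm in OHT, and their part was not tested.

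The fatty acid genes had the largest ratios between cultures and sorted cells, with a median log2 of 2.67 beside 0.60 for the mevalonate genes, 1.08 for the steps from squalene and 1.22 for the regulators. By role, all 3 cultures lay above all 6 sorted libraries in ppm for 5 of 6 fatty acid genes, 8 of 12 genes from squalene to cholesterol, 4 of 7 mevalonate genes and 4 of 6 regulators. In all these were 21 of 31 genes, and 0 of 31 lay below all sorted libraries, while 32.5% of the 15438 genes in both tables lay above and 16.5% below. Of the 14004 of these that passed the filter of the sorted table, 33.4% lay above and 18.2% below. The ratio of culture to sorted means had a median log2 of 1.18 over the 31 genes and 0.21 over all genes. With the total taken without the 20 highest genes, 17 of the 31 lay above and 1, Insig1, below (26.0% and 20% of all genes), and the medians were 0.83 and -0.14. Scaled by the median ratio of genes, 18 lay above and Insig1 below (25.0% and 20.8% of all genes), with medians of 0.84 and -0.16. These are levels set across separately normalised tables, with no test, and effects of culture, of the sort and of the animals' age cannot be told apart. The sum of the proliferation markers (7 of 7 listed) also differed, at 1062 to 1176 ppm in the cultures and 103 to 406 ppm in the sorted libraries. In the cultures 6 of the 7 lay above all sorted libraries. Pcna overlapped, at 94.6 to 119 ppm, with 105 ppm in OHT replicate 2. The part of these markers was not tested.

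Fasn was at 183, 348 and 260 ppm in the cultures and at 2.54 to 31.0 ppm in the sorted libraries, a ratio of means of 14.5. Scd1 was at 115, 125 and 110 ppm in the cultures and at 0.189 to 27.5 ppm in the sorted libraries, with a ratio of 13.9. Elovl6 was at 69.2, 62.3 and 67.4 ppm against 0.735 to 10.9 ppm, with a ratio of 9.67. For these 3 genes the lowest culture held 5.90, 3.99 and 5.74 times the highest sorted library. Acaca had a ratio of 4.19 (33.3, 42.5 and 34.0 ppm against 2.60 to 14.9 ppm). Acly, at 311, 282 and 284 ppm against 84.9 to 219 ppm, had the smaller ratio of 1.84. Scd2 was the 1 fatty acid gene whose cultures overlapped the sorted range, at 216, 212 and 176 ppm, with 184 ppm in sham replicate 2. These 3 highest ratios belonged to genes that were among the lowest of the 31 per length in the sorted cells.

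Among the sterol enzymes, Sqle had the largest ratio, 4.72, with 192, 250 and 261 ppm in the cultures and 6.91 to 70.1 ppm in the sorted libraries. Hsd17b7 followed with 4.20 (82.7, 67.2 and 63.7 ppm against 6.96 to 29.6 ppm) and Fdps with 3.39 (273, 255 and 226 ppm against 45.7 to 129 ppm). Mvk (3.30), Acat2 (3.08), Lss (3.00), Lbr (2.89), Fdft1 (2.34), Nsdhl (2.06) and Sc5d (1.85) lay above all sorted libraries under all 3 scalings. Cyp51 (2.17) did so under 2 of the 3 and Mvd (1.52) in ppm only. Hmgcs1, Pmvk, Idi1, Tm7sf2, Msmo1, Ebp and Dhcr7 overlapped the sorted range, with ratios between 0.752 and 1.33. The enzymes of 1 pathway therefore had unequal ratios, from 0.752 for Tm7sf2 to 4.72 for Sqle.

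The regulators of the cultures went in different directions. Srebf2 was at 82.1, 126 and 107 ppm in the cultures and at 20.5 to 42.5 ppm in the sorted libraries, with no overlap under any of the 3 scalings (ratio 3.38). Srebf1, at 36.2, 64.0 and 66.7 ppm, overlapped through sham replicate 3 at 39.5 ppm (ratio 2.86). Scap was at 27.3, 51.8 and 55.7 ppm against 7.11 to 24.1 ppm (ratio 2.74), and lay above all sorted libraries under 2 of the 3 scalings. Insig1 was at 15.1, 23.0 and 20.9 ppm in the cultures against 50.2 to 54.2 ppm in sham and 17.6, 37.3 and 61.3 ppm in OHT, a ratio of 0.434. Only OHT replicate 1 reached the level of the cultures. Insig2, at 72.6, 81.1 and 76.2 ppm, lay above the sorted range of 27.4 to 62.8 ppm (ratio 1.63), and did so under 2 of the 3 scalings. Stard4 was at 51.3, 47.0 and 48.5 ppm, just above the highest sorted library at 43.1 ppm, and separated in ppm only.

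**Figure D4:**
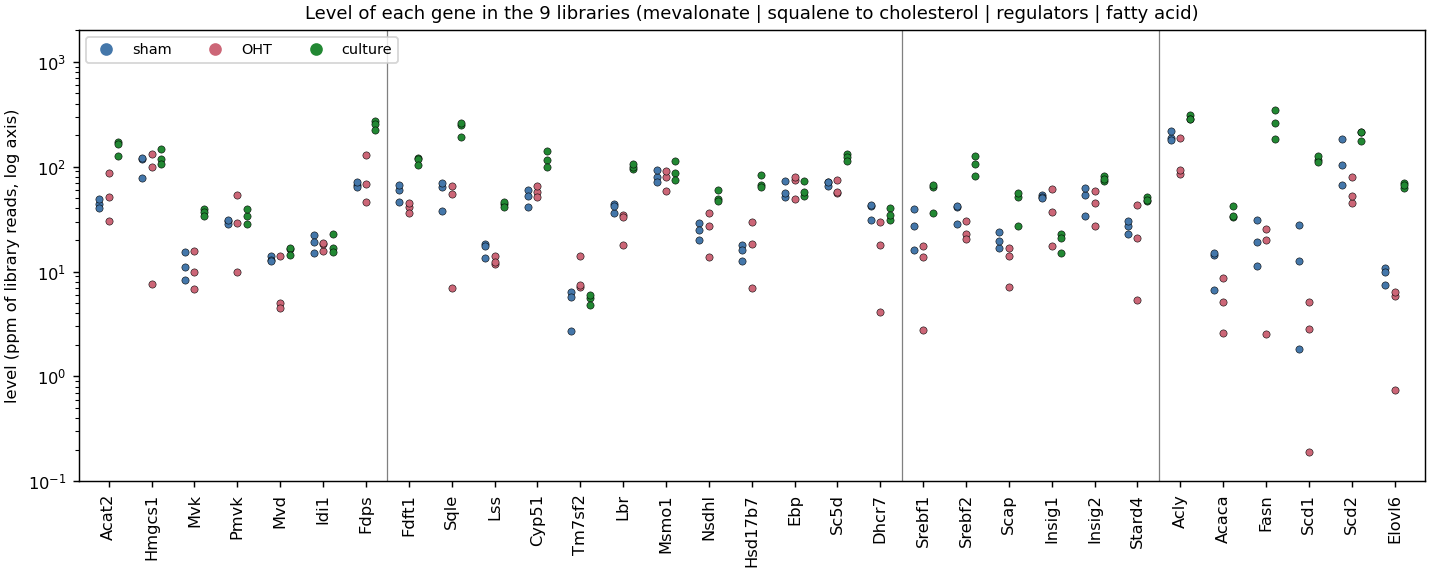
Level of the 31 genes in ppm of library reads (vertical axis, log scale) in the 9 libraries, ordered by role. Points are libraries. Fasn, Scd1 and Elovl6 show the widest gaps between cultures and sorted libraries, with culture means 14.5, 13.9 and 9.67 times the sorted means, and Insig1 lies lower in the cultures than in 5 of the 6 sorted libraries.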

How the data were processed

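Complementary DNA was made by template switching, amplified, and read as 150 bp pairs, per the labels' protocols. The submitters' processing notes name bcl2fastq 2.20, Trim Galore 0.6.6, FastQC 0.11.9, STAR 2.7.1a and mm39; for the counting program and annotation, the choice is not given in the sources used here. The deposited signal is a gene count that the authors divided by 1 factor per library, not by gene length. Dividing each column by its smallest step gave whole reads (tolerance 0.05 reads) for 100% of values; in the culture column with a step of 1.01 this is no independent check. All columns belonged to a sample.

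OHT was compared with sham in R 4.3.3 with limma 3.58.1 (prior variance following the mean level) on log2(value + 1), over 14403 genes with a mean of at least 10, with Benjamini-Hochberg adjustment over these genes, a threshold of 0.05 and no covariate. This scale understates changes of low genes. edgeR 4.0.16 and DESeq2 1.42.0 on recovered reads, pseudocounts of 0.5 and 10, other filters, TMM factors, quantile normalization, array weights, a replicate block and leaving out each library were alternatives. The fits were tested on simulated data. A count of 0 allows up to 3 reads, for counting error only. TPM used exon lengths from GENCODE M21 (GRCm38), matched by symbol for 94.8% of sorted genes; promoters came from RefSeq on GRCm38.p6, another build than mm39, so positions serve only to locate those sequences. Values in every sorted library are given for members under an unadjusted p of 0.05 or without overlap, for the regulators, and for the 2 highest members per length in each role; others were chosen after seeing values. The rule for the members uses no measured value, but members and lists were chosen with earlier results of these data known. Not every gene of these pathways is reported here. Python 3.11.15 with scipy 1.17.1 and matplotlib 3.10.9 was used.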

Additional observations from a re-analysis of the deposited data

How the results depend on the processing

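No alternative called any of the 31 genes, and their smallest adjusted p lay between 0.206 (Dhcr7 without OHT replicate 2) and 0.906. Over all genes, limma called 0; DESeq2 called 250, and leaving out 1 library gave 0 to 17. Same-numbered sham and OHT libraries showed no sign of deviating together (r of 0.078, -0.025 and -0.045). Other pairs had r of -0.073 to 0.10. With 3 libraries per group this cannot exclude a shared batch. The fit with the replicate block called 2 genes, none of them a member. It had 3 members at an unadjusted p under 0.05, against 1 without the block. Over all genes there were 1809 of 14403 with the block and 1680 of 14403 without it. The count of members without overlap was 3 in the main fit (18.4% of all genes). It was 2 after quantile normalization and 4 to 11 when 1 library was left out. It was 11 without sham replicate 1 (34.0% of all genes) and 9 without OHT replicate 2 (36.6%). The share over all genes is not given here for the other settings, so their counts are not read as a result about the members. The median of the 31 genes stayed below 0, and below that of all genes, under all alternatives; leaving out 1 library gave -0.35 to -0.10, and the gap to all genes was smallest, -0.052, without OHT replicate 1. In the cultures 0 members lay below all sorted libraries, and 1 did under both other scalings; leaving out 1 library gave 0 to 1.

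The sign was kept by 18 members and changed at least once in 13. It changed for Insig2 with TMM factors (-0.010), quantile normalization (-0.14), edgeR (-0.065) and DESeq2 (-0.0029), for Msmo1 (-0.14) and Sc5d (-0.16) after quantile normalization, for Mvk (-0.063), Pmvk (0.18), Hsd17b7 (-0.21) and Sc5d (-0.026) with array weights, and for Pmvk with edgeR (0.077) and DESeq2 (0.13). Leaving out 1 library gave -0.15 to 0.56 for Mvk, -0.0013 to 0.30 for Idi1, -0.40 to 0.43 for Pmvk, -0.19 to 0.19 for Insig2, -1.51 to 0.15 for Hmgcs1, -1.08 to 0.14 for Sqle, -0.43 to 0.90 for Hsd17b7, -0.065 to 0.20 for Sc5d, -0.91 to 0.19 for Stard4, -0.98 to 0.29 for Fasn, -0.30 to 0.061 for Lss and -0.85 to 0.039 for Scap. The cause was not tested.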
